A study of Mus musculus with 30 samples.

Results

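The genes described here are 9 brain proteins that serve as autoantigens, or as markers of the cells that make such antigens, and were measured in mouse thymus: the myelin and oligodendrocyte genes Mbp, Mog, Mag, Mobp, Omg and Cnp, and the astrocyte genes Gfap, Aqp4 and S100b. They were taken as a named list of symbols, a rule that uses no measured value, though the list was drawn up with earlier results of these data known. All 9 were found among the 35999 gene symbols and the 55011 genes of the 2 kinds of RNA-seq table used, one of transcript estimates summed to symbols and the other of gene counts. The cells are medullary thymic epithelial cells (mTECs), sorted at 1000 cells per library from thymi of female C57BL/6J mice aged 4 to 6 weeks after CD45+ cells had been depleted. Of the 30 samples of the series, 21 libraries were used.

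The libraries form 10 groups. Aire-GFP+ mTECs, gated on a reporter of Aire transcription and with no treatment named, came from WT mice (3 libraries) and Aire-KO mice (2 libraries). The other 16 libraries are mTEChi, the mature high-MHC class II mTECs, with 2 libraries in each of 8 groups. Spermidine or its PBS vehicle was injected intraperitoneally into WT mice and into Aire-KO mice, which makes 4 groups. Topotecan, a topoisomerase I inhibitor, or its DMSO vehicle was injected intraperitoneally into WT mice. The last pair carried Foxn1-cre, which is active in thymic epithelium, together with either Nfe2l2+/+ or Nfe2l2 fl/fl, so both sides of that comparison carry the Cre. The labels state neither dose nor time. Nothing in the labels ties a library to its own mouse, so the p-values measure the spread between libraries, which may be partly technical.

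Aire is a nuclear protein of mature mTECs that promotes low-level transcription of a large set of genes otherwise restricted to peripheral tissues, so that developing T cells reactive to those products are deleted or diverted to regulatory fates. Each such gene is made by a small minority of mTECs at any time, and genes such as Mbp and Cnp are also transcribed outside the nervous system. Myelin is the lipid-rich sheath that oligodendrocytes in the brain and Schwann cells in peripheral nerve wrap around axons, and myelin proteins are the classic targets of experimental autoimmune encephalomyelitis, a mouse model of multiple sclerosis. Mbp has a distal promoter that gives the golli transcripts, known from lymphoid cells, and a proximal promoter that gives the classic myelin transcripts.

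Library totals ran from 6615295 to 12682072 estimated counts in the Aire-GFP+ libraries and from 2027205 to 5724045 counts in mTEChi. All 10 mTEC markers (among them Epcam, Krt5, Foxn1 and Fezf2) had counts in every library. The summed count over Aire does not check the Aire-KO label: it was 1641 ± 188.5 CPM (counts scaled to library size; SD, n = 2) in Aire-KO and 1653 ± 44.1 (n = 3) in WT Aire-GFP+ cells, and 4363 ± 475.4 (n = 4) against 1691 ± 87.1 (n = 4) in mTEChi. Nfe2l2 likewise had 96.0 ± 13.3 CPM in fl/fl and 91.1 ± 0.487 in +/+ libraries (n = 2 each). A gene total does not show where along a gene its reads lie, so the directions below rest on the labels. CPM values are scaled by trimmed mean of M values (TMM).

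Levels of different genes were compared only per length, as TPM (transcript abundance per base, scaled to the library) in the Aire-GFP+ libraries. In WT cells Cnp, the 2',3'-cyclic nucleotide phosphodiesterase of non-compact myelin, stood far above the rest at 283.5 ± 16.2 TPM (SD, n = 3). Mbp, the basic protein that binds the inner faces of compact myelin, had 22.9 ± 7.15 TPM, and Mag, the adhesion protein of the innermost myelin layer, had 16.2 ± 0.358. Their ranges lay close together without overlap, at 17.8 to 31.1 and 15.8 to 16.5 TPM.

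Gfap, the astrocyte intermediate filament, followed at 1.42 to 3.31 TPM. S100b, a calcium-binding protein of astrocytes and Schwann cells, had 1.77 to 3.15, and Omg, an oligodendrocyte surface glycoprotein that restrains axon growth, had 0.821 to 3.07. Mobp, a small basic protein of compact central myelin, had 0.395 to 1.94 TPM and Aqp4, the water channel of astrocyte end-feet, 0.625 to 1.17. Each of these 5 overlapped its neighbours in the order, so their ranking is not resolved by 3 libraries. Mog, a surface protein of the outermost myelin layer, was the lowest at 0.0242 TPM on average, with 1 count in 1 of the 3 WT libraries and none in the others.

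Loss of Aire in Aire-GFP+ cells went with opposite changes among the 9 genes. Gfap, S100b, Omg and Mag fell, while Cnp and Mbp rose. Of 8 genes that passed the filter on low counts, 2 were called higher and 4 lower at an adjusted p under 0.05 (edgeR quasi-likelihood test, Benjamini-Hochberg over 17923 genes). Over all genes tested, 41.3% were called, 19% higher and 22.3% lower. The median log2 fold change of the 8 was −2.16, beside −0.12 over all genes tested; the filter passes genes that are high in either group, so this median describes those 8 only. Mog was below the filter, with 1 estimated count in WT and 2 in Aire-KO. In these bulk libraries fewer cells making a transcript and less transcript per cell cannot be told apart.

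**Figure D1:**
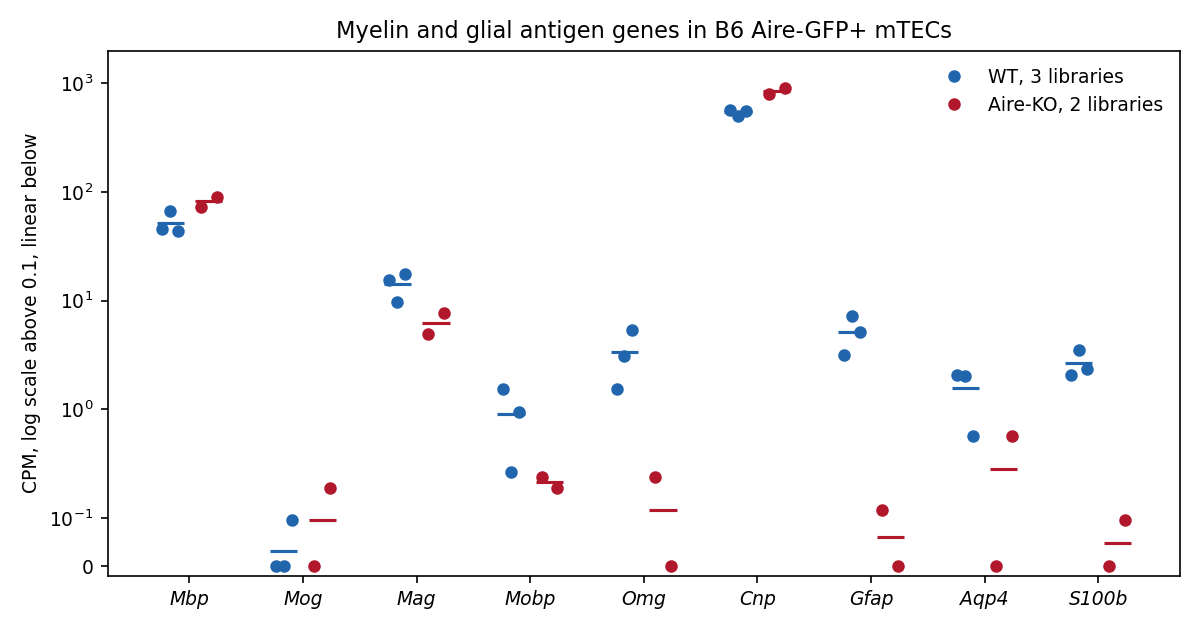
Level of each of the 9 genes in the 5 Aire-GFP+ libraries, in CPM on an axis that is logarithmic above 0.1 and linear below it; points are libraries, bars are group means, blue is WT (n = 3) and red is Aire-KO (n = 2). Gfap, S100b and Omg sit near 0 in both Aire-KO libraries, while both Aire-KO libraries lie above all 3 WT libraries for Cnp and Mbp.

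Cnp measured 563.6, 505.2 and 556.1 CPM in the 3 WT libraries and 803.5 and 906.0 CPM in the 2 Aire-KO libraries. Both Aire-KO libraries lay above every WT library, and the gap was several times the spread within either group. The group means were 541.6 ± 31.8 and 854.8 ± 72.5 CPM, a log2 fold change of 0.66 (SE 0.0996, 95% interval 0.43 to 0.89, adjusted p = 0.00153). An annotated exon of Cnp overlaps an exon of Dnajc7 on the other strand, and the libraries do not record strand, so reads in that overlap cannot be told apart. Dnajc7 itself rose from 169.9 ± 9.94 to 237.6 ± 10.1 CPM (log2 0.48, adjusted p = 0.00795). In TPM, Cnp averaged 283.5 in WT and 317.1 in Aire-KO.

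Omg measured 1.52, 3.09 and 5.39 CPM in WT and 0.238 and 0 CPM in Aire-KO. The groups did not overlap, and 103 estimated counts in WT stood against 2 in Aire-KO, a ratio of levels of 0.0299 (95% counting interval 0.00357 to 0.111, adjusted p = 0.0121). The gene lies within an intron of Nf1 on the opposite strand, with no exon in common, and Nf1 was not called (log2 −0.69). Without Aire-KO replicate 2 the Omg difference was no longer called (adjusted p = 0.0592).

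Mobp had 1.52, 0.264 and 0.945 CPM in WT and 0.238 and 0.189 CPM in Aire-KO. Both Aire-KO values lay below all 3 WT values, by a small margin below WT replicate 2, and the difference was not called (24 against 4 estimated counts, log2 −2.0, adjusted p = 0.182). Exons of Mobp overlap those of the non-coding gene Gm38642 on the same strand, so counts of the pair are uncertain.

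Mag measured 15.6, 9.70 and 17.6 CPM in WT and 4.88 and 7.67 CPM in Aire-KO, again without overlap. The log2 fold change was −1.18 (SE 0.362, adjusted p = 0.0315) on 14.3 ± 4.10 CPM in WT and 6.27 ± 1.97 in Aire-KO. This call was lost when any library except WT replicate 2 was left out (adjusted p from 0.0503 to 0.162), and with limma-voom (log2 −1.11, adjusted p = 0.0594). It also depended on which transcript the reads were assigned to. The authors' estimates put 96.6 and 172.8 of the Mag counts of WT replicates 1 and 3 on the transcript Mag-203, but 85.0 counts of WT replicate 2, and 26.1 and 52.0 of the Aire-KO libraries, on Mag-201. With counts corrected for the effective length of the assigned transcripts the log2 fold change was −0.15 (adjusted p = 0.73). The TPM of Mag was 15.8 to 16.5 in WT and 8.24 and 12.5 in Aire-KO, without overlap.

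Mbp measured 45.9, 66.9 and 43.5 CPM in WT and 73.4 and 90.5 CPM in Aire-KO. Both Aire-KO libraries were above the WT libraries, the nearest pair being WT replicate 2 and Aire-KO replicate 1. The rise from 52.1 ± 12.9 to 82.0 ± 12.1 CPM was a log2 fold change of 0.65 (SE 0.207, adjusted p = 0.0356). It was not called when any library except WT replicate 2 was left out (adjusted p from 0.0565 to 0.201), with scaling by library totals (log2 0.25, adjusted p = 0.366), or with the correction for effective length (log2 0.18, adjusted p = 0.609). The TPM of Mbp lay in the other direction, at 22.9 ± 7.15 in WT and 18.4 ± 3.46 in Aire-KO.

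The summed value of Mbp hid a split between its start sites. The annotation (GENCODE M21, GRCm38) places Mbp on chromosome 18 from 82475146 to 82585637, plus strand, with 4 transcripts that begin at the distal (golli) end and 11 that begin at the proximal (classic) sites 79324 bases downstream. Distal transcripts had 29.6, 37.5 and 33.2 CPM in WT and 64.8 and 80.3 CPM in Aire-KO. Every Aire-KO value exceeded every WT value by a wide margin, and the log2 fold change was 1.12 (SE 0.167, adjusted p = 0.00356 over 23082 groups of start sites, of which 14.6% were called higher and 17.8% lower). It was between 0.97 and 1.29 with each library left out in turn, called each time, and 0.76 with library totals (adjusted p = 0.0159).

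Proximal transcripts, the ones used for myelin, had 16.8, 30.0 and 10.9 CPM in WT and 7.63 and 8.36 CPM in Aire-KO. The groups did not overlap, the WT libraries were widely spread, and the difference of the level itself was not called (log2 −1.27, SE 0.439, adjusted p = 0.0645). It was called without WT replicate 3 (log2 −1.57, adjusted p = 0.0239) and with library totals (log2 −1.63, adjusted p = 0.0312). Most distal counts were on Mbp-205, with 177.8, 350.1 and 287.2 counts in WT and 531.4 and 781.7 in Aire-KO.

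**Figure D2:**
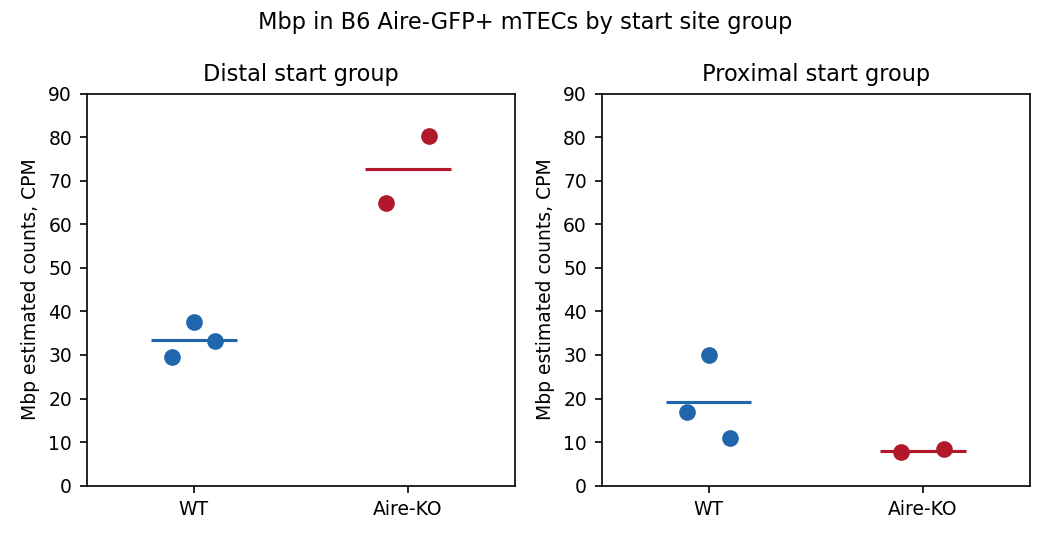
Level of the Mbp transcripts that begin at the distal (golli) and the proximal (classic) start sites in each Aire-GFP+ library, in CPM; points are libraries, bars are group means, blue is WT (n = 3) and red is Aire-KO (n = 2). Distal transcripts stood at 29.6 to 37.5 CPM in WT and 64.8 to 80.3 in Aire-KO, and proximal transcripts at 10.9 to 30.0 and 7.63 to 8.36.

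As a share of all Mbp counts, distal transcripts made up 63.4%, 55.4% and 75.2% in WT and 89.5% and 90.5% in Aire-KO. Both Aire-KO libraries lay above all WT libraries, 25.4 percentage points higher on average (64.6 ± 9.94% in WT, 90.02 ± 0.723% in Aire-KO). An exact two-sided permutation test gave p = 0.2, where 3 libraries against 2 cannot go below 0.1. In a model over all genes with more than 1 group of start sites, the proximal group fell relative to the rest of Mbp (log2 −1.30, adjusted p = 0.0299), and use of start sites differed for Mbp as a whole (adjusted p = 0.00761, a call made for 20.7% of 4012 genes). The relative fall of the proximal group was no longer called when any library except WT replicate 3 was left out (adjusted p from 0.0535 to 0.269). The 14 of 16 Mbp transcripts that reach the annotated end of the gene held 38.6%, 48.8% and 27.9% of Mbp counts in WT. In Aire-KO they held 10.5% and 9.47%. Most Mbp counts were thus on transcripts that end earlier in every library, and by a wider margin in Aire-KO. The authors' quantification divides reads between overlapping transcripts by a model, and no measure of its uncertainty was used here, so these values are estimates. These start-site fits were added after the gene totals had been seen.

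Gfap measured 3.18, 7.14 and 5.10 CPM in WT and 0.119 and 0 CPM in Aire-KO. All WT libraries were far above the higher Aire-KO library, with 158 estimated counts against 1, a ratio of 0.00973 (95% counting interval 0.000245 to 0.0550, adjusted p = 0.00186). S100b measured 2.07, 3.53 and 2.36 CPM in WT and 0 and 0.0947 CPM in Aire-KO. The groups did not overlap either, with 80 counts against 1 (ratio 0.0192, interval 0.000481 to 0.110, adjusted p = 0.00496). The calls for Gfap and S100b held in every alternative fit and with each library left out.

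Aqp4 measured 2.07, 2.03 and 0.567 CPM in WT and 0 and 0.568 CPM in Aire-KO. Aire-KO replicate 2 and WT replicate 3 were at the same level, so the groups touched, and the difference was not called (44 against 6 counts, log2 −2.32, adjusted p = 0.153).

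The stretch before the start of Cnp, which rose without Aire, is printed beside those of Gfap and S100b, whose falls held in every fit, so that their base composition can be compared. Each is 215 bases of the genomic strand of the gene, 5′ to 3′, ending 36 bases before the RefSeq start, from the RefSeq promoter table of build GRCm38.p6, with CpG pairs in capitals. Cnp is at chr11:100574689-100574903 (plus strand), Gfap at chr11:102897236-102897450 (minus strand) and S100b at chr10:76253586-76253800 (plus strand). The Gfap stretch lies before the RefSeq start but within the gene as GENCODE M21 places it, from 102887336 to 102900912.
Cnp: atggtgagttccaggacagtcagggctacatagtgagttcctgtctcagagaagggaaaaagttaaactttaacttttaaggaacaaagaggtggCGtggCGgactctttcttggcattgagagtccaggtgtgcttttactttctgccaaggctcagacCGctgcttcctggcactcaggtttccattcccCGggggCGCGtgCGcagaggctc
Gfap: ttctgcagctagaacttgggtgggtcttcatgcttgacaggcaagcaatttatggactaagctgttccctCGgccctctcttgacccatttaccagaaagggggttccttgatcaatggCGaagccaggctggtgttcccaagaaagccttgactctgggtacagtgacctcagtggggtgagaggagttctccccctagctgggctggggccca
S100b: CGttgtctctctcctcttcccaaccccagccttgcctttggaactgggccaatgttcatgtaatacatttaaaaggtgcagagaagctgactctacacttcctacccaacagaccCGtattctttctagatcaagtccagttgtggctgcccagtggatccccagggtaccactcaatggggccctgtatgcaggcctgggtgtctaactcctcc
Cnp holds 7 CpG pairs, and Gfap and S100b hold 2 each, beside a median of 5 over the 32851 promoters of the table (quartiles 2 and 13). Cnp is at 52.1% G+C, S100b at 52.1% and Gfap at 54.9%, beside a median of 51.6%. So Cnp is richer in CpG than the other pair, but all 3 lie within the common range.

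Entries were found for 6 of the 9 genes. The full 250 bases before each start were searched on both strands for CACACACACA, an alternating repeat able to form Z-DNA, found in 1.43% of promoters, for the TATA box TATAAA, found in 12.4%, and for TGACNNNGC, the core of the antioxidant response element that NRF2, the product of Nfe2l2, binds, found in 10.2%. The single match was TGACNNNGC in Cnp, on the plus strand with its first base 31 bases before the RefSeq start. That position lies past the end of the printed stretch, in sequence that GENCODE M21 places within Cnp, which it begins at 100574904. These letters are absent from the windows of Mag, Mobp, Mog, Gfap and S100b.

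The mTEChi libraries give a separate measurement of Aire loss, in cells gated without the reporter and quantified as gene counts. Cnp was higher without Aire under either injection, and Omg, Gfap and Aqp4 fell when both injections were pooled in 1 contrast. Mbp, which had more counts without Aire in Aire-GFP+ cells, was not called. With PBS, 1 of the 8 genes tested was called higher (Cnp) and none lower, where 10.3% of all 18418 genes were called, 5.21% higher and 5.08% lower. With spermidine edgeR again called 1 higher and none lower, where 9.11% were called, 4.77% higher and 4.34% lower; DESeq2 also called Mag and Gfap lower there (adjusted p = 0.0323 and 0.0237). Over both injections, with 4 libraries a side, 1 was called higher and 3 lower, where 22.8% were called, 10.3% higher and 12.5% lower. The median log2 fold change of the 8 was −1.92 over both injections, beside −0.06 over all genes tested.

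**Figure D3:**
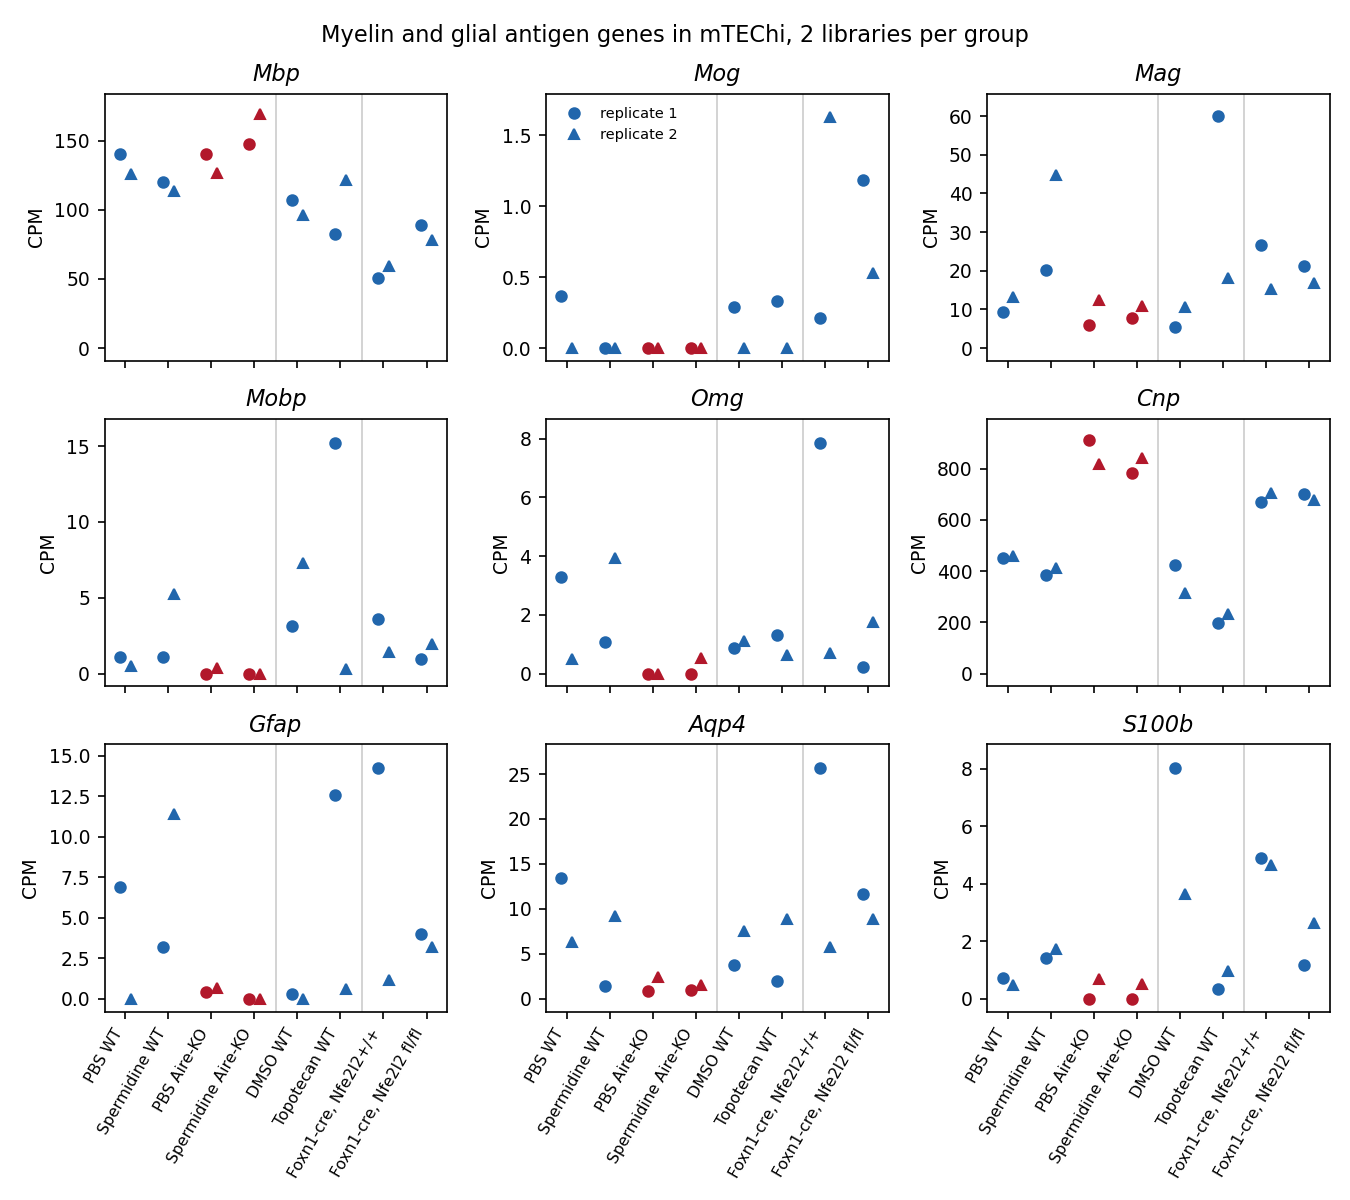
Level of each of the 9 genes in the 16 mTEChi libraries, in CPM. Points are libraries in 8 groups of 2 libraries, and blue marks Aire-intact and red Aire-KO groups. Cnp stands at 784.4 to 910.9 CPM in the 4 Aire-KO libraries, above all 12 others, and the low genes differ widely between the 2 libraries of a group.

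Cnp measured 451.9 and 459.4 CPM in WT and 910.9 and 819.5 CPM in Aire-KO with PBS. With spermidine it measured 386.3 and 411.0 CPM in WT and 784.4 and 842.9 CPM in Aire-KO. Every Aire-KO library was far above every WT library, with log2 fold changes of 0.93 with PBS (SE 0.134, adjusted p = 0.000649) and 1.03 with spermidine (SE 0.135, adjusted p = 0.000418). Over both it was 0.98 (SE 0.0950, adjusted p = 8.39e-06), called with each library left out. Dnajc7 was not called here (log2 0.25 over both, adjusted p = 0.0798).

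Mbp measured 140.2 and 125.7 CPM in WT and 140.6 and 126.5 CPM in Aire-KO with PBS, and the 2 groups overlapped almost entirely (log2 0.00). With spermidine it measured 120.4 and 113.5 CPM in WT and 147.2 and 169.3 CPM in Aire-KO, without overlap (log2 0.44, adjusted p = 0.153). Over both injections the log2 fold change was 0.22 (adjusted p = 0.235). These gene counts do not tell distal from proximal start sites.

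Omg had 9 and 1 counts in the WT libraries with PBS and 3 and 9 with spermidine. The Aire-KO libraries had 0 and 0 counts with PBS and 0 and 1 with spermidine. Against 22 counts in WT, the 1 count in Aire-KO gave a ratio of levels of 0.0490 (95% counting interval 0.00119 to 0.303, adjusted p = 0.0475), and a WT library with 1 count overlapped Aire-KO. Mobp had 3 and 1 counts in WT with PBS, 3 and 12 with spermidine, and 1 count in 1 of the 4 Aire-KO libraries. The groups did not overlap in CPM, but the difference was not called (ratio 0.0568, interval 0.00137 to 0.357, adjusted p = 0.0991).

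Gfap had 19 and 0 counts in WT with PBS and 9 and 26 with spermidine, against 1 and 2, and then 0 and 0, in Aire-KO. The PBS signal rested on WT replicate 1, and the groups overlapped. The ratio was 0.0599 (95% counting interval 0.0120 to 0.185, adjusted p = 0.0461).

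Aqp4 measured 13.5 and 6.31 CPM in WT with PBS and 1.42 and 9.20 with spermidine. In Aire-KO it measured 0.868 and 2.42 CPM with PBS and 0.971 and 1.55 with spermidine. WT replicate 1 with spermidine lay among the Aire-KO libraries and the other 3 WT libraries above them. The means were 7.60 ± 5.07 and 1.45 ± 0.711 CPM (log2 −2.27, SE 0.752, adjusted p = 0.0422).

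These 3 calls were close to the threshold. Omg and Gfap kept it only when WT replicate 2 with PBS was left out, and Aqp4 when that library or WT replicate 1 with spermidine was left out. With the other libraries left out, adjusted p reached 0.243 for Omg, 0.314 for Aqp4 and 0.9999 for Gfap (without WT replicate 1 with PBS). The log2 fold changes stayed below 0 throughout.

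Mag measured 9.47 and 13.1 CPM in WT and 6.08 and 12.4 CPM in Aire-KO with PBS, then 20.2 and 44.7 and 7.77 and 10.9 CPM with spermidine. The groups overlapped with PBS and not with spermidine, and edgeR called neither difference (log2 −0.25, and −1.79 with adjusted p = 0.0795). With spermidine, Mag was called lower by DESeq2 (log2 −1.83, adjusted p = 0.0323), when those groups alone were fitted (adjusted p = 0.0173) and without the low-count filter (adjusted p = 0.00131). S100b was scarce, with 11 counts over the 4 WT and 3 over the 4 Aire-KO libraries (adjusted p = 0.265). Mog had 1 count in the 4 WT and none in the 4 Aire-KO libraries.

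When library totals replaced TMM, the median log2 fold change of all genes moved from −0.12 to −0.51 in Aire-GFP+ cells and from −0.06 to −0.23 in mTEChi over both injections. Called genes that were higher made up 46% with TMM and 20.3% with library totals in Aire-GFP+ cells, and 45.1% and 26.6% in mTEChi. For PBS alone they made up 50.6% and 29.5%, and for spermidine alone 52.4% and 34%. Cnp stayed called higher with totals in Aire-GFP+ cells (log2 0.26, adjusted p = 0.0493), where Mbp did not.

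**Figure D4:**
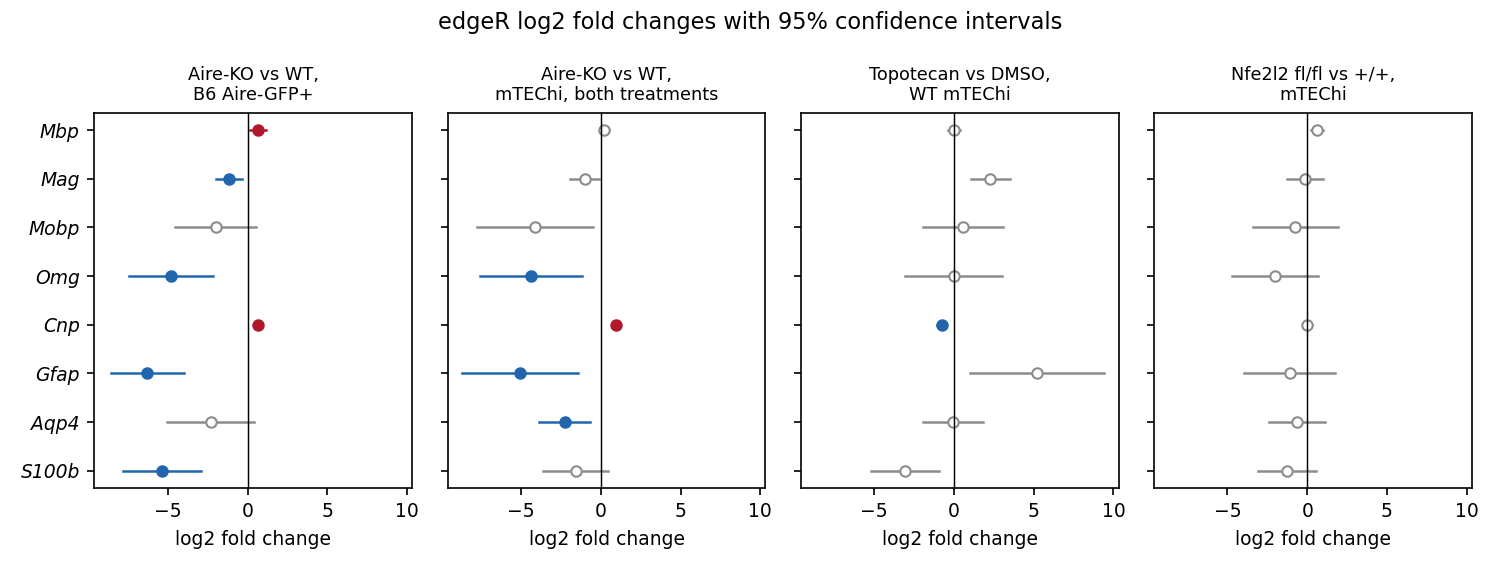
Log2 fold change of the 8 tested genes (x axis) in 4 comparisons, Aire-KO against WT in Aire-GFP+ cells, Aire-KO against WT in mTEChi over both injections, topotecan against DMSO, and Nfe2l2 fl/fl against +/+; bars are 95% intervals from edgeR and filled points passed an adjusted p of 0.05. Cnp is above 0 for both Aire comparisons (0.66 and 0.98) and below 0 for topotecan (−0.78), and Mog is not shown because it was below the filter.

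Other genes of the same pathways were counted in the same comparisons. Of 24 other myelin genes, 23 were tested in Aire-GFP+ cells, and 1 was called higher and 8 lower, a share near the 41.3% called over all genes, 19% higher and 22.3% lower. Their median log2 fold change was −1.94, beside −0.12 over all genes. As for the 8 genes, the filter passes genes that are high in either group, so this and the other list medians describe the tested genes only. Ugt8a, which makes the myelin lipid galactosylceramide, had 160 counts in WT and 0 in Aire-KO and was at least 34.7-fold lower. Prx, a Schwann cell scaffold protein, had 127 counts in WT against 3 (ratio 0.0363, interval 0.00739 to 0.109). Gpm6b, a membrane glycoprotein of neurons and glia, fell from 11.1 ± 1.40 to 2.90 ± 0.0552 CPM (log2 −1.94, adjusted p = 0.00289). Enpp6, a choline phosphodiesterase of new oligodendrocytes, was the gene that rose (2.71 ± 0.787 to 7.75 ± 0.690 CPM, log2 1.503, adjusted p = 0.0218).

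In mTEChi over both injections, 21 of the myelin genes were tested, and 1 was called higher and 11 lower, where 22.8% of all genes were called, 10.3% higher and 12.5% lower. Their median log2 fold change was −1.73, beside −0.06. Mal, a lipid-raft protein of myelin and epithelia, fell from 13.0 ± 6.61 to 2.19 ± 1.14 CPM (log2 −2.55, adjusted p = 7.93e-05). Gal3st1, which sulfates galactosylceramide, fell from 8.63 ± 3.11 to 0.865 ± 0.881 CPM (log2 −3.66, adjusted p = 0.000319). Tspan2, a tetraspanin of myelin, fell by 1.28 on the log2 scale (adjusted p = 0.00207), and Prx by 2.93 (adjusted p = 0.00866). Nfasc, an adhesion protein of the node of Ranvier, rose from 122.1 ± 3.25 to 223.7 ± 18.8 CPM (log2 0.87, adjusted p = 0.000147). With PBS alone 1 myelin gene was called higher and 3 lower, where 10.3% of all genes were called, and with spermidine alone 1 higher and 5 lower, where 9.11% were.

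Of 16 other astrocyte genes, all were tested in Aire-GFP+ cells, with 1 called higher and 8 lower, where 41.3% of all genes were called and 22.3% lower (median log2 −0.58, beside −0.12). Gja1, the gap junction protein connexin 43, fell from 305.2 ± 9.16 to 133.1 ± 11.2 CPM (log2 −1.20, adjusted p = 0.000173). Mlc1 and Hepacam, partner membrane proteins of astrocyte end-feet, had 156 and 119 counts in WT and 1 count each in Aire-KO (ratios 0.00986, interval 0.000248 to 0.0557, and 0.0129, interval 0.000324 to 0.0734). Atp1b2, a sodium pump subunit of astrocytes, fell from 8.21 ± 1.98 to 1.06 ± 0.650 CPM (log2 −2.92, adjusted p = 0.00378). Slc1a2, a glutamate transporter, rose (log2 1.14, adjusted p = 0.0312).

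In mTEChi over both injections 15 astrocyte genes were tested, with 1 called higher and 3 lower, a share near the 22.8% called over all genes (median log2 −0.30, beside −0.06). Slc1a3, the other main astrocyte glutamate transporter, rose from 211.2 ± 15.1 to 460.2 ± 45.4 CPM (log2 1.12, adjusted p = 6.20e-06). Acsbg1 (log2 −1.04), Gpc5 (log2 −2.09) and Hepacam (log2 −3.10) were the genes called lower. Acsbg1 and Hepacam were also called lower in Aire-GFP+ cells. With library totals in Aire-GFP+ cells, Enpp6 and Slc1a2 were no longer called higher, and 11 myelin and 8 astrocyte genes were called lower, where 6250 of all 17923 genes were, against 4000 with TMM.

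Of 14 regulators of glial lineages, 11 were tested in Aire-GFP+ cells, with 1 called higher and 4 lower, a share near the 41.3% called over all genes. With library totals 1 was called higher and 7 lower. Sox10, the transcription factor that drives myelin genes in oligodendrocytes and Schwann cells, had 28, 35 and 33 counts in the WT libraries and 0 and 1 in Aire-KO (ratio 0.0160, interval 0.000401 to 0.0914, adjusted p = 0.00281). Sox2, Sox8 and Egr2, the last a regulator of Schwann cell myelination, were the others called lower. Olig2, a regulator of the oligodendrocyte lineage, rose from 0.455 ± 0.171 to 2.81 ± 0.901 CPM (log2 2.56, adjusted p = 0.0207). In mTEChi over both injections 8 regulators were tested and 1 was called, where 22.8% of all genes were called and 12.5% lower. It was Myrf, which activates myelin genes in oligodendrocytes, lower at log2 −1.44 (adjusted p = 0.0268). The groups overlapped for Myrf, at 1.74 to 4.84 CPM in Aire-KO and 3.88 to 9.47 in WT.

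As a sum, markers of peripheral glia moved with the fallen genes. The summed level of 10 such markers (among them Sox10, Erbb3, Cdh19 and Ngfr) was 69.4 to 93.9 CPM in WT and 32.4 to 38.0 CPM in Aire-KO among Aire-GFP+ libraries, with 0 to 1 and 1 to 2 markers without a count. In mTEChi it was 130.5 to 227.4 CPM in the 12 Aire-intact and 84.6 to 127.4 in the 4 Aire-KO libraries. Foxd3, also on this list, went the other way in Aire-GFP+ cells, with 3, 8 and 0 counts in WT and 13 and 11 in Aire-KO. Of 8 such markers tested, none was called higher and 4 lower in each setting, where 22.3% of all genes were called lower in Aire-GFP+ cells and 12.5% in mTEChi over both injections. The summed level of 8 neuron markers was 61.0 to 128.0 CPM in WT and 39.5 to 47.6 in Aire-KO among Aire-GFP+ libraries. There 1 of the 8 was called higher and 3 lower, where 19% and 22.3% of all genes were. In mTEChi their sum was 48.9 to 125.7 CPM in the 12 Aire-intact and 26.5 to 34.0 in the 4 Aire-KO libraries, without overlap. Over both injections none of the 8 was called higher and 4 lower. The 10 mTEC markers, Aire among them, summed to 13150 to 13450 CPM in WT and 24040 to 27020 CPM in Aire-KO among Aire-GFP+ libraries. Of these 10, 5 were called higher and 2 lower, where 19% and 22.3% of all genes were. Their median log2 fold change was 0.33, so the sum does not describe each marker. Among the other cell types checked in Aire-GFP+ libraries, 6 fibroblast markers summed to 71.1 to 112.6 CPM in WT and 252.0 to 328.5 in Aire-KO, but of 5 tested 2 were called higher and 2 lower, with a median log2 fold change of −1.64. The 6 myeloid markers summed to 980.3 to 1410 and 2196 to 2211 CPM, again with 2 called higher and 2 lower and a median of −0.89. The 8 thymocyte markers summed to 49.7 to 72.1 and 22.6 to 41.4 CPM. Of these 8, none was called higher and 1 lower, with a median log2 fold change of −0.06, beside −0.12 over all genes. The part of these markers in the differences of the 9 genes was not tested.

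Spermidine, a polyamine, was compared with PBS within each genotype. None of the 8 tested genes was called in WT mTEChi (0% of all genes called), in Aire-KO mTEChi (0.00543% called) or for the difference between the genotypes (0% called), by edgeR, DESeq2 or limma-voom. At an unadjusted p under 0.05 there was 1 of the 8 in WT, 0 in Aire-KO and 0 for the difference, where 709, 759 and 619 of all genes were past that mark. The 1 was Mag, at 9.47 and 13.1 CPM with PBS and 20.2 and 44.7 with spermidine in WT (log2 1.52, unadjusted p = 0.0195, adjusted p = 0.999). For Cnp the log2 fold change was −0.19 in WT (95% interval −0.48 to 0.09) and −0.09 in Aire-KO. Mbp was lower with spermidine in both WT libraries and higher in both Aire-KO libraries than with PBS, without overlap, and the test of that difference gave log2 0.43 (adjusted p = 0.9999).

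Topotecan lowered Cnp in WT mTEChi. Cnp measured 425.2 and 316.3 CPM with DMSO and 199.1 and 233.5 CPM with topotecan. Both topotecan libraries lay below both DMSO libraries (216.3 ± 24.3 against 370.7 ± 77.0 CPM), a log2 fold change of −0.78 (SE 0.135, 95% interval −1.07 to −0.49, adjusted p = 0.0203). It was the 1 call among the 8 genes, where 0.652% of all genes were called, 0.195% higher and 0.456% lower. The call was lost without DMSO replicate 1 (log2 −0.56, adjusted p = 0.130), without topotecan replicate 1 (log2 −0.67, adjusted p = 0.0738), and when these 4 libraries alone were fitted (log2 −0.78, adjusted p = 0.336). Aire fell with topotecan too, from 1340 ± 226.6 to 729.7 ± 126.1 CPM (log2 −0.88, adjusted p = 0.0125). Dnajc7, which shares exonic sequence with Cnp, had 167.8 ± 2.17 CPM with DMSO and 168.2 ± 7.19 with topotecan.

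Other values under topotecan were far apart without passing the edgeR test. Mag measured 5.45 and 10.7 CPM with DMSO and 59.96 and 18.2 CPM with topotecan, without overlap (log2 2.27, SE 0.575, adjusted p = 0.0890). DESeq2 called Mag higher (adjusted p = 0.0109), as did edgeR without topotecan replicate 2 (log2 2.88, adjusted p = 0.0243) or without the low-count filter (adjusted p = 3.51e-05). S100b had 28 and 13 counts with DMSO and 1 and 3 with topotecan, also without overlap (log2 −3.10, adjusted p = 0.174). Gfap had 1 and 0 counts with DMSO and 38 and 2 with topotecan, so nearly all of it was in topotecan replicate 1 (ratio 45.8, 95% counting interval 7.77 to 1854, adjusted p = 0.257). Mobp likewise had 46 counts in topotecan replicate 1 and 1 in replicate 2, against 11 and 26 with DMSO. The median log2 fold change of the 8 was 0.00, beside 0.01 over all genes.

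None of the 8 was called between Nfe2l2 fl/fl and +/+ mTEChi by edgeR, DESeq2 or limma-voom, where 0% of all genes were called by edgeR and 973 had an unadjusted p under 0.05. Nfe2l2 encodes NRF2, a transcription factor of the oxidative stress response. Mbp was the 1 of the 8 with an unadjusted p under 0.05: it measured 50.6 and 59.6 CPM in +/+ and 88.9 and 78.3 CPM in fl/fl, without overlap (log2 0.60, 95% interval 0.22 to 0.98, adjusted p = 0.651). Cnp, with the TGACNNNGC match before its RefSeq start, measured 670.5 and 704.9 CPM in +/+ and 701.3 and 678.6 in fl/fl. The log2 difference was 0.01 with an interval of −0.28 to 0.29. S100b had 23 and 20 counts in +/+ and 5 and 15 in fl/fl, without overlap in CPM (log2 −1.28). Mog, otherwise at 0 or 1 count in each mTEChi library, had 1 and 7 counts in +/+ and 5 and 3 in fl/fl.

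The 9 genes differed in how well libraries of a group repeated each other. Between the 2 libraries of each of the 8 mTEChi groups, Cnp differed by a factor of 1.02 to 1.34 and Mbp by 1.06 to 1.48. Aqp4 differed by 1.31 to 6.50, Omg by up to 11.3, Gfap by up to 19.8 and Mobp by up to 47.8, where both libraries had a count. The biological coefficient of variation fitted by edgeR was 0.11 for Cnp, 0.128 for Mbp, 0.379 for Mag, 0.449 for S100b, 0.587 for Aqp4, 0.783 for Omg, 0.807 for Mobp and 0.935 for Gfap, beside a median of 0.257 over all genes. Within groups, Cnp and Mbp thus varied less than the typical gene and the other 6 more. Between groups they were less steady. In the PBS WT, DMSO WT and Nfe2l2+/+ groups Cnp averaged 455.7, 370.7 and 687.7 CPM, and Mbp 132.9, 101.4 and 55.1 CPM.

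Low genes were also compared between the libraries of a pair, taking the library with the larger sum over the 7 genes other than Cnp and Mbp, a choice that itself favours higher values there. In Nfe2l2+/+ replicate 1, 6 of the 7 were higher than in replicate 2, with summed levels of 83.1 and 30.7 CPM. Omg had 37 counts there and 3 in replicate 2, Gfap 67 and 5, and Aqp4 121 and 25. In WT spermidine replicate 2, 6 of the 7 were higher than in replicate 1 and none lower (76.2 against 28.3 CPM), and in topotecan replicate 1, 5 of the 7 were higher (91.8 against 29.6 CPM). The summed peripheral glia markers were nearly level in these pairs, at 133.0 and 130.5, 195.0 and 215.6, and 178.5 and 193.7 CPM. In the DMSO and fl/fl pairs the split was 4 against 3, with 30.3 against 21.8 and 40.5 against 35.7 CPM.

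In mTEChi, Mobp, Omg and S100b had a count in all 12 Aire-intact libraries, and in 1, 1 and 2 of the 4 Aire-KO libraries. Gfap had counts in 10 of 12 and 2 of 4, and Mog in 7 of 12 and 0 of 4. Over the 4 Aire-KO libraries a count of 0 allows a level of up to 0.296 CPM (3 counts over the group, by library totals without TMM). That is above the Aire-intact median of Mog (0.250 CPM), so the absence of Mog in Aire-KO was not distinguishable from that median. It is below the Mog means of the Nfe2l2+/+ and fl/fl groups, 0.921 and 0.858 CPM. These limits cover counting error only, as the libraries carry no molecular identifiers.

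For the 4 genes with a mean of at least 5 CPM, the genes with the most similar profile over the 16 mTEChi libraries were found by Pearson's r of log2(CPM + 1) among 13977 genes, as a description. The closest to Cnp were Hdc (r = 0.989), Icam1 (r = 0.984) and Syngr2 (r = 0.980). The closest to Mbp were H2-T23 (r = 0.909), Gm48855 (r = 0.908) and Fam126b (r = 0.895). The closest to Mag were Ptprn (r = 0.825), Snx7 (r = 0.808) and Ctse (r = 0.803), and to Aqp4 Ppa1 (r = 0.880), Dcpp1 (r = 0.843) and C1d (r = 0.839). The libraries share genotype, treatment and sequencing depth, which all enter these values.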

How the data were processed

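RNA from 1000 sorted mTECs per library was amplified with oligo-dT priming (Smart-seq2) and tagmented (Nextera XT), per the labels' protocols, without strand or molecular identifiers. For the Aire-GFP+ cells the authors deposited estimated counts, TPM and effective lengths per transcript, and per the submitters' processing notes kallisto was among their tools. For mTEChi they deposited whole-number counts per gene. Their notes also name STAR, featureCounts, TopHat2 2.1.1, SAMtools 1.3.1 and mm10, without saying which step each served.

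Of 118489 transcripts, 116816 matched GENCODE M21 and were summed to 35999 symbols and rounded; the rest held 0.541 to 0.578% of counts. The main test was edgeR 4.0.16 (R 4.3.3) with TMM scaling, filterByExpr, a quasi-likelihood test on group means and Benjamini-Hochberg adjustment over all genes tested, called at 0.05. Aire-GFP+ libraries were fitted alone and the 16 mTEChi libraries together. Mbp shares were compared with an exact permutation test (scipy 1.17.1), and start-site groups (5′ ends within 5 kb) with edgeR. Ratios carry 95% counting intervals, and a group at 0 is bounded with 3 counts over the group. Alternatives were DESeq2 1.42.0, limma-voom (limma 3.58.1), other scalings, no filter, fits of a comparison's own groups, effective lengths, a replicate block and each library left out. The scripts were tested on simulated data. All 9 genes are named in every comparison, with Aire, Nfe2l2, up to 4 called genes per direction and pathway list with the smallest p, and the 3 genes most like a member in profile; some genes of the lists are not reported here by name. The genes, lists and tests were chosen with earlier results of these data known. The 6 NOD libraries and 3 F1 samples were not used here.

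Replicate numbers are shared between groups but do not pair libraries: deviations of same-numbered libraries from their group means correlated at −0.01 to 0.057.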

Additional observations from a re-analysis of the deposited data

How the results depend on the processing

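The called number of the 8 genes tested stayed within 1.5 times its main value in most fits. For Aire-KO against WT with spermidine, 1 call became 3 with DESeq2 (Mag and Gfap added), 4 without the low-count filter (Mag, Gfap and Mobp) and 2 when those groups alone were fitted (Mag). With PBS, 1 became 2 without the filter and 2 with those groups alone (Aqp4 in both). Over both injections, 4 became 1 with limma-voom. For topotecan, 1 became 2 with DESeq2 (Mag), 3 without the filter (Mag and Gfap) and 0 with those groups alone. With each library left out in turn, the number ran from 3 to 6 in Aire-GFP+ cells (3 without Aire-KO replicate 2), from 1 to 4 in mTEChi over both injections and from 0 to 2 for topotecan; it was 1 each time with PBS and with spermidine alone. The rise in the distal share of Mbp ran from 20.758 to 30.64 percentage points, and was 31.905 from TPM. The cause of these differences was not tested.

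Over single genes, comparisons and alternatives, 777 values kept their side of the threshold, 15 gained a call, 41 lost one and none that was called changed sign. With a replicate block, 5 genes were called in Aire-GFP+ cells, 3 in mTEChi over both injections, 1 with PBS, 1 with spermidine and 1 for topotecan. Under that block Mag (log2 −0.98, adjusted p = 0.0706) in Aire-GFP+ cells and Omg (log2 −4.41, adjusted p = 0.0922) in mTEChi were no longer called. Over all genes, topotecan calls numbered 120 in the main test, 415 with DESeq2, 60 with limma-voom, 1006 without the filter, 196 with the replicate block and 1 with those groups alone. For Nfe2l2, where edgeR called none, DESeq2 called 26 and the fit without the filter 134. Without the filter, spermidine calls were 111 in WT, 76 in Aire-KO and 78 for their difference, against 0, 1 and 0. With limma-voom, 1068 genes were called with PBS, 836 with spermidine and 2753 over both, against 1896, 1678 and 4195, and fitting the spermidine groups alone gave 2577. Mog, Mobp, Omg, Gfap, Aqp4 and S100b rest on few counts, so their differences are imprecise at this depth. Where a library was left out of a group of 2, the remaining library was assumed to vary like the other groups.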
